A study of Mus musculus with 15 samples.

Results

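In mouse CD8+ T cells 8 mRNA, Gpr83, Ecm1, Pgpep1l, Pou2af1, Cd7, Pde2a, Gm5538 and E130215H24Rik, were followed through 5 conditions. They were picked because they were far higher when the kinase PI3K p110δ was inhibited during activation, or when interleukin 2 (IL-2) was taken away from cytotoxic T cells (CTL). The question for each was whether the other treatment, and the naïve state, showed a high level as well. The 8 members are among 11836 genes that 2 tables of FPKM (fragments scaled to exon length and library size) hold between them, and 10637 genes are in both. All 8 are in the first table of 11262 genes and 7 are in the CTL table of 11211 genes, which does not list Gpr83.

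P14 mice carry a transgenic T cell receptor (TCR) that recognises the gp33–41 peptide of a lymphocytic choriomeningitis virus glycoprotein, and the 15 libraries came from their CD8+ T cells, with 3 replicates in each of 5 groups. For the first table, lymph node cells of 3 female mice aged 9 to 13 weeks were pooled for each replicate and split. Part was sorted at once as naïve cells (TCRβ+ CD8+, CD44 low). The rest was activated for 24 h by gp33–41 at 100 ng/ml together with IL-12 (2 ng/ml) and IL-2 (20 ng/ml), and sorted as live CD8+ cells. It was given either vehicle (TCR) or 10 µM IC87114, an inhibitor of PI3K p110δ (TCR with PI3Kdi). Both activated groups therefore share peptide, cytokines and culture, and naïve cells had none of these. For the second table, cells were activated for 48 h and kept for 4 further days in IL-2 to make CTL. On day 6 they were washed and given either 20 ng/ml IL-2 or no IL-2 for 24 h. Part of the treatment label of the CTL kept in IL-2 names another interleukin in replicates 2 and 3, so these libraries were grouped by title and replicate number. The 2 tables were normalised separately, and levels in them are set side by side with no test between them.

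PI3K p110δ is the catalytic subunit that makes the lipid PIP3 downstream of the TCR and of cytokine receptors in lymphocytes, and the kinase AKT is then recruited and active. Active AKT keeps FOXO transcription factors out of the nucleus, where in quiescent T cells they drive genes of recirculation and survival such as Klf2 and Il7r. IL-2 signals through JAK kinases and STAT5 and sustains growth and effector function of CTL.

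The largest differences chose the members, and those differences are given as a description with no test. Ranked from the highest log2 fold change down, Gpr83, Pgpep1l and Ecm1 were 1, 4 and 5 of 11262 for PI3Kdi against TCR. Cd7, Gm5538, Pde2a and E130215H24Rik were 1, 2, 3 and 4 of 11211 for CTL without against with IL-2. Pou2af1 was 159 and 616 in these orders, and which of the comparisons it was picked on is not clear, so neither is used as a test of it. Tests are therefore given for the other treatment, which used other libraries, and for the comparisons with naïve cells. TCR against naïve cells shares the TCR libraries with the comparison that picked Gpr83, Pgpep1l and Ecm1. An mRNA is called higher or lower at an adjusted p under 0.05 together with a change of over 2-fold in limma, fitted to log2(FPKM + 0.1) over all genes of a table with Benjamini-Hochberg adjustment. Fold changes on this scale understate the change of low mRNA.

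The libraries carried the markers of their label. Of 9 CD8 T cell markers, 8 were in both tables, and Cd8a was between 107 and 556 FPKM in the 15 libraries. The summed level of 5 activation markers was 57.0 to 71.1 FPKM in naïve, 3200 to 4886 in TCR activated, 980 to 1210 in PI3Kdi treated cells, 9450 to 12260 in CTL with IL-2 and 455 to 719 without it. The summed level of 5 naïve markers, among them Ccr7 and Tcf7, was 1965 to 2326, 337 to 376, 528 to 707, 109 to 126 and 879 to 1102 FPKM in the same order. The activation sum was carried by Gzmb, with means of 3147 FPKM in TCR activated and 379 in PI3Kdi treated cells, whereas Il2ra (556.7 and 563.4 FPKM) and Cd69 (46.6 and 55.6 FPKM, against 51.8 in naïve cells) were not called between these groups. The part of these markers in the results for the members was not tested. In such bulk samples a change in the share of cells that express an mRNA cannot be told apart from a change in its level per cell.

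The members are unlike in place and in kind. All encode proteins except E130215H24Rik, a long non-coding RNA. In mm10 they lie at chr11:121036747-121039478 (Cd7), chr7:101421691-101512829 (Pde2a), chr3:59729786-59752397 (Gm5538), chr2:150667494-150668932 (E130215H24Rik), chr7:68235521-68264484 (Pgpep1l), chr9:51213690-51240079 (Pou2af1), chr3:95734147-95739876 (Ecm1) and chr9:14859880-14870789 (Gpr83). Promoter windows of 300 bases, 250 before to 50 after a start site, were matched in RefSeq (GRCm38.p6) for 7 members, 11 windows in all because Pde2a has 5. The windows were searched on both strands for GTAAACA, the core of FOXO sites, TTCNNNGAA, the spaced palindrome that STAT5 binds, CCACCC, a KLF box, and TGCAAAT, the core of the octamer that Oct factors bind, and none of these spellings holds another. The forkhead letters stood in 1 of the 11 windows, that of E130215H24Rik, against 3.65% of 32851 promoters of the same length. The octamer core stood in that of Pou2af1 alone (4.02% of all promoters), the KLF box in those of Gpr83 and of 1 of the Pde2a starts (31.5%), and the STAT5 letters in none (8.30%). Only 4 windows are shown 5′ to 3′ on the strand of the gene: the 3 single windows in which a motif was found, in capitals, and that of Pgpep1l, which had the largest difference with PI3Kdi among members that also rose after IL-2 loss and in which none was found. Where the reverse strand matched, the capitals are the reverse complement of the letters given.
E130215H24Rik, chr2:150667244-150667543, + strand, forkhead: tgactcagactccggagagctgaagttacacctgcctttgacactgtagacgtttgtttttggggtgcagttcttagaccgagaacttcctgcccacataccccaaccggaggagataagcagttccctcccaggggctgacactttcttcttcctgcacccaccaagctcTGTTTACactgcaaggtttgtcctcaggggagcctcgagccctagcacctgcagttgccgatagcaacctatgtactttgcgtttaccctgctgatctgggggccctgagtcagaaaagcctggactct
Pou2af1, chr9:51213440-51213739, + strand, octamer core: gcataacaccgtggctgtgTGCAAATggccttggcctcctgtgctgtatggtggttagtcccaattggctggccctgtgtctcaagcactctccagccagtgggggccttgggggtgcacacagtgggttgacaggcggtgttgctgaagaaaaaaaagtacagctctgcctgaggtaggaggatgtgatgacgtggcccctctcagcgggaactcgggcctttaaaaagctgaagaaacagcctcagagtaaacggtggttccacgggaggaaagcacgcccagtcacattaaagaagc
Gpr83, chr9:14859960-14860259, + strand, KLF box: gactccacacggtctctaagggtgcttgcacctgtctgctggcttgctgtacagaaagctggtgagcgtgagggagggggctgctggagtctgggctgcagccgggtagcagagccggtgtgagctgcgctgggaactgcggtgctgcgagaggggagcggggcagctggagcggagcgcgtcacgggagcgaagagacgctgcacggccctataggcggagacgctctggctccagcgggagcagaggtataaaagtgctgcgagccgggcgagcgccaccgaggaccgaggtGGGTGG
Pgpep1l, chr7:68264184-68264483, − strand, no match: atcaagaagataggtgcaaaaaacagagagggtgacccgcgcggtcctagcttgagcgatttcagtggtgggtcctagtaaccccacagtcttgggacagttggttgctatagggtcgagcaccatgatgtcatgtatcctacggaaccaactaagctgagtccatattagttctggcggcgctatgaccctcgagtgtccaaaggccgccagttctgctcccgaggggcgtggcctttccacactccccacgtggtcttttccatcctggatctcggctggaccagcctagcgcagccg
A match here describes letters in a short window and does not show a bound site, and a window without a match says nothing of the factor.

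These 8 mRNA showed 4 patterns that could be told apart. Cd7, Pde2a and E130215H24Rik were high in naïve cells, very low after TCR activation, far below the naïve level with PI3Kdi and high in CTL without IL-2. Gm5538 and Pgpep1l followed a similar course from low naïve levels (means of 1.03 and 1.81 FPKM), but with PI3Kdi their libraries overlapped those of naïve cells. Pou2af1 was at several FPKM in naïve and TCR activated cells, above its naïve level with PI3Kdi by under 2-fold, and low in CTL. Ecm1 and Gpr83 were high with PI3Kdi and low both in naïve and in TCR activated cells, and Ecm1 did not differ with IL-2. The plot of levels in every library shows these courses side by side.

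**Figure D1:**
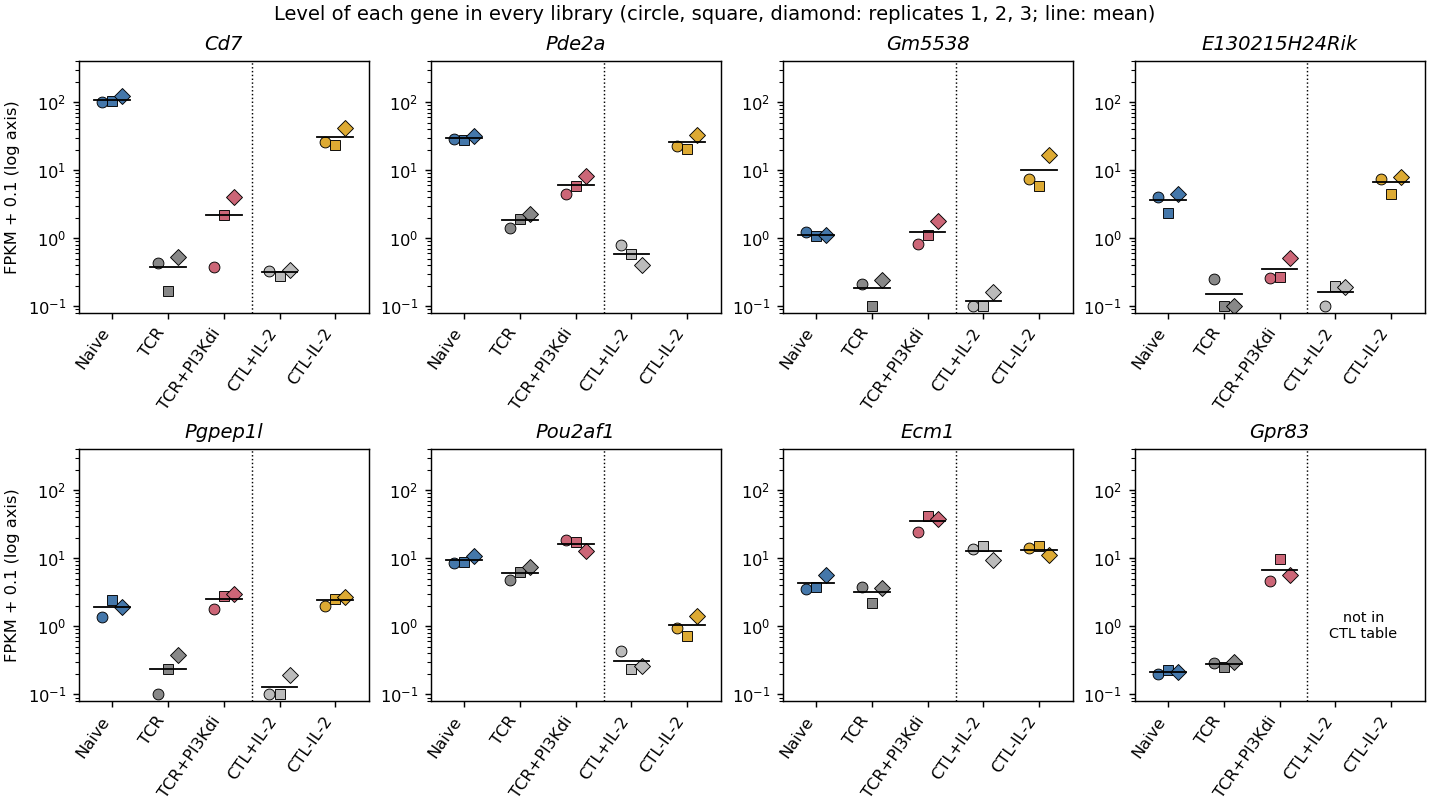
FPKM + 0.1 on a log axis for each of the 8 mRNA in all 15 libraries (circle, square and diamond for replicates 1, 2 and 3, line for the mean), with a dotted line between the 2 separately normalised tables. Cd7, Pde2a, Gm5538, E130215H24Rik and Pgpep1l are lower in the TCR than in the naïve group and lower in the CTL+IL-2 than in the CTL-IL-2 group. Ecm1 is at 9.33 to 15.0 FPKM in all 6 CTL libraries.

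Cd7 encodes a small immunoglobulin family receptor of T and NK cells. It was the most abundant member in naïve cells, with 98.5, 103 and 122 FPKM in replicates 1, 2 and 3. In TCR activated cells it was at 0.34, 0.07 and 0.43 FPKM, and with PI3Kdi at 0.28, 2.09 and 3.89 FPKM. All naïve libraries were far above every activated library, and the PI3Kdi and TCR groups overlapped, because replicate 1 with PI3Kdi was no higher than its TCR partner. TCR activation lowered Cd7 by 8.30 on the log2 scale (SE 0.70, adjusted p = 5.85e-07), which was the second lowest of 11262 fold changes. With PI3Kdi the level was 1.93% ± 1.67 (SD, n = 3) of the naïve mean, against 0.26% ± 0.174 without it, and remained lower than in naïve cells (log2 fold change −6.17, SE 0.70, adjusted p = 8.49e-06). The difference between PI3Kdi and TCR was 2.13 on the log2 scale (SE 0.70) and was not called (adjusted p = 0.0599). It passed with the replicate number as a block (adjusted p = 0.0453) and without replicate 1 of the PI3Kdi group, where it was 3.12 (adjusted p = 0.00115). Over 12 other settings of the fit it ran from 1.08 to 3.30, with adjusted p up to 0.472, and 9 did not call it. The TCR values stand on few reads, by estimate 1.0 to 4.8 per library.

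In CTL with IL-2, Cd7 was at 0.23, 0.18 and 0.24 FPKM, and without IL-2 at 25.8, 23.5 and 41.4 FPKM. The groups did not overlap, and the difference in log2(FPKM + 0.1) was 6.54 (SE 0.21), the value that picked this mRNA. The naïve mean of 107.9 ± 12.7 (SD, n = 3) FPKM stands beside 30.2 ± 9.71 (SD, n = 3) in IL-2 deprived CTL. Its exons overlap those of a gene on the other strand, Gm11775, over 124 bases.

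Pde2a encodes a phosphodiesterase that hydrolyses cAMP and cGMP and is stimulated by cGMP. Its level was 28.5, 27.8 and 31.3 FPKM in the naïve, 1.30, 1.79 and 2.14 FPKM in the TCR and 4.43, 5.68 and 8.05 FPKM in the PI3Kdi group. No 2 of these groups overlapped. With TCR activation Pde2a fell by 4.02 on the log2 scale (SE 0.22, adjusted p = 1.44e-08). With PI3Kdi it rose 3.30-fold above TCR (log2 fold change 1.72, SE 0.22, adjusted p = 3.83e-04), and this was higher in 3 of 3 same-numbered pairs. The level with PI3Kdi, 20.7% ± 6.30 (SD, n = 3) of the naïve mean, was still lower than in naïve cells by 4.90-fold (adjusted p = 1.87e-06). In CTL it was at 0.69, 0.48 and 0.30 FPKM with IL-2 and at 22.7, 20.6 and 32.9 FPKM without it, a difference of 5.46 (SE 0.26) on the log2 scale. The mean without IL-2, 25.4 ± 6.54 FPKM (SD, n = 3), stands beside 29.2 ± 1.87 FPKM (SD, n = 3) of naïve cells in the other table. Gm45837, a gene model on the same strand that neither table lists, is identical to Pde2a over 3957 of 4105 transcript bases, so how reads were shared between them is uncertain.

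E130215H24Rik was at 3.87, 2.23 and 4.36 FPKM in naïve cells. After TCR activation it was at 0.15 FPKM in replicate 1, while the cells of replicates 2 and 3 are blank and were read as 0, and with PI3Kdi it was at 0.16, 0.17 and 0.42 FPKM. Both activated groups lay far below every naïve library, and the PI3Kdi libraries were above the TCR libraries by no more than a few reads, by estimate 2.0 to 5.0 against 0 to 2.0. The fall with TCR activation was called (log2 fold change −4.67, SE 0.42, adjusted p = 9.32e-07), as was the lower level with PI3Kdi than in naïve cells (log2 fold change −3.38, SE 0.42, adjusted p = 1.65e-05). The difference between PI3Kdi and TCR, 1.29 on the log2 scale (SE 0.42), was not called (adjusted p = 0.0554). It passed with the replicate number as a block (adjusted p = 0.0456), and without replicate 1 in any group it was 1.91 (adjusted p = 0.0318). Over 12 other settings of the fit it ran from 0.25 to 3.23, with adjusted p up to 0.360, and 9 did not call it. CTL held 0, 0.10 and 0.09 FPKM with IL-2 and 7.24, 4.39 and 7.95 FPKM without it, a difference of 5.36 (SE 0.32) on the log2 scale, and these groups did not overlap.

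E130215H24Rik starts inside Acss1, a gene on the opposite strand that encodes a mitochondrial acetyl-CoA synthetase, and their exons share 73 bases. The library kit keeps the strand, but whether the counting used it is not given in the sources used here, so reads of the shared bases may count for either gene. Acss1 had the same course at a higher level. Naïve cells had 34.0 ± 1.69 FPKM, TCR activated cells 2.04 ± 0.295 and PI3Kdi treated cells 5.01 ± 0.960 (SD, n = 3 each), and Acss1 passed for PI3Kdi against TCR (log2 fold change 1.25, adjusted p = 3.06e-04), though just under 2-fold with a pseudocount of 1 (0.98). In CTL it was at 1.39 ± 0.208 FPKM with and 23.9 ± 4.39 FPKM without IL-2 (log2 fold change 4.01, adjusted p = 1.72e-07).

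Gm5538, named Aadacl2fm2 in RefSeq, belongs to the arylacetamide deacetylase-like family. Its level was low and even in naïve cells, at 1.12, 0.97 and 1.00 FPKM. TCR activated cells had 0.11 and 0.14 FPKM in replicates 1 and 3 and a blank, read as 0, in replicate 2, and cells with PI3Kdi had 0.73, 1.01 and 1.67 FPKM. The PI3Kdi libraries were all above the TCR libraries and lay around the naïve ones. Gm5538 fell with TCR activation by 2.72 on the log2 scale (SE 0.36, adjusted p = 2.42e-05) and rose with PI3Kdi against TCR (log2 fold change 2.78, SE 0.36, adjusted p = 4.10e-04). Between PI3Kdi and naïve cells the log2 fold change was 0.06 (SE 0.36, adjusted p = 0.879), and the level with PI3Kdi was 110% ± 46.9 (SD, n = 3) of the naïve mean. With a pseudocount of 1 the difference with PI3Kdi was 0.96 and thus under 2-fold.

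In CTL, Gm5538 was listed at 0 in 2 libraries with IL-2 and at 0.06 FPKM in the third, and it was at 7.26, 5.80 and 16.7 FPKM without IL-2. The mean of 9.93 ± 5.94 FPKM (SD, n = 3) without IL-2 is the highest of its 5 group means. Its transcript is 93.3% identical to that of 4930449A18Rik over 1206 of its 1235 bases, a gene that neither table lists, so how reads were shared between them is uncertain.

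Pgpep1l encodes a protein like pyroglutamyl peptidase, an enzyme that removes pyroglutamate from the ends of peptides. Naïve cells had 1.29, 2.35 and 1.80 FPKM. After TCR activation it was blank in replicate 1, which was read as 0, and was at 0.14 and 0.28 FPKM in replicates 2 and 3, while PI3Kdi treated cells, which picked it, had 1.68, 2.69 and 2.93 FPKM. The PI3Kdi libraries overlapped those of naïve cells and not those of the TCR group. The fall with TCR activation was 3.16 on the log2 scale (SE 0.43, adjusted p = 3.33e-05), in a comparison that shares the TCR libraries with the one that picked it. The level with PI3Kdi was 134% ± 36.6 (SD, n = 3) of the naïve mean.

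After IL-2 withdrawal, in libraries that had no part in its choice, Pgpep1l rose. It was listed at 0 in 2 libraries with IL-2 and was at 0.09 FPKM in the third, and without IL-2 it was at 1.88, 2.46 and 2.56 FPKM (log2 fold change 4.26, SE 0.30, adjusted p = 2.18e-06). The means with PI3Kdi, without IL-2 and in naïve cells were 2.43 ± 0.663, 2.30 ± 0.367 and 1.81 ± 0.530 FPKM (SD, n = 3 each). Its relative Pgpep1 was called in none of these comparisons and was between 1.19 and 3.88 FPKM on average in the 5 groups.

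Pou2af1 encodes OCA-B, a coactivator that binds Oct factors on octamer DNA and is best known from B cells. It was at 8.44, 8.71 and 10.6 FPKM in the naïve, 4.70, 6.25 and 7.22 FPKM in the TCR and 18.7, 17.3 and 12.7 FPKM in the PI3Kdi group. No 2 of these groups overlapped, and the order was TCR, naïve, PI3Kdi. The lower level after TCR activation was under 2-fold (log2 fold change −0.62, SE 0.18, adjusted p = 0.00921). That comparison shares the TCR libraries with PI3Kdi against TCR, which may have picked Pou2af1. The ratio of the PI3Kdi to the TCR mean was 2.68. Against naïve cells the level with PI3Kdi was 1.73-fold (log2 difference 0.79, SE 0.18), which is under 2-fold and was not called. In replicate 3 that ratio was 1.20. In CTL the level was lower by an order of magnitude in number, at 0.34, 0.14 and 0.16 FPKM with IL-2 and 0.86, 0.62 and 1.31 FPKM without it, and these groups did not overlap either (log2 difference 1.72, SE 0.33).

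B cell RNA was followed beside Pou2af1. Of 12 B cell markers, 6 are in the first table, and they summed to 21.1 to 27.6 FPKM in the naïve, 5.09 to 8.52 in the TCR and 3.46 to 4.80 in the PI3Kdi group. With PI3Kdi 3 of the 6 were called lower than in TCR activated cells, among them Ms4a1, and none higher. Cd79b, the most abundant of them, was at 2.58 to 3.48 FPKM in the TCR and 2.79 to 3.77 in the PI3Kdi group and was not called (adjusted p = 0.626). The part of B cell RNA in the Pou2af1 levels was not tested. In the CTL table only Cd79b is listed, with 2.74 to 6.30 FPKM with IL-2 and 10.8 to 20.6 without it, in the same direction as Pou2af1.

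Of the Oct factor genes listed with Pou2af1, Pou2f1, Pou2f2 and Pou6f1 are in the tables, and Pou2f3 and Pou3f1 are not. Pou2f1 (Oct-1) was called in none of the comparisons. Pou2f2 (Oct-2) was 1.81 ± 0.626 FPKM in CTL with IL-2 and rose to 7.41 ± 1.51 without it (SD, n = 3, adjusted p = 5.68e-05). Pou6f1 had a course like that of Cd7, with a mean of 13.1 FPKM in naïve, 0.187 in TCR and 0.453 in PI3Kdi treated cells, the last 2 not called apart (adjusted p = 0.0621, and 0.0337 without replicate 1 of the PI3Kdi group), and 0.180 with against 8.55 FPKM without IL-2 (adjusted p = 1.09e-06).

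Ecm1 encodes a secreted matrix glycoprotein. It was at 3.41, 3.66 and 5.59 FPKM in naïve cells and 3.62, 2.13 and 3.50 FPKM in TCR activated cells, and these groups overlapped (log2 fold change −0.44, SE 0.27, adjusted p = 0.143). With PI3Kdi it was at 23.8, 42.3 and 37.6 FPKM. The mean with PI3Kdi was 11.2 times that of TCR activated and 8.19 times that of naïve cells. In CTL it was at 13.5, 15.0 and 9.33 FPKM with IL-2 and 14.1, 14.9 and 10.9 FPKM without it. The groups overlapped, and the difference of 0.09 on the log2 scale (SE 0.18) was not called (adjusted p = 0.678). Ecm1 is the member that was well expressed in both CTL groups.

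Gpr83 encodes a G protein-coupled receptor that is known from regulatory T cells and the brain. Naïve cells had 0.10, 0.13 and 0.11 FPKM and TCR activated cells 0.19, 0.15 and 0.20 FPKM, which did not overlap but were not called apart (log2 fold change 0.39, SE 0.26, adjusted p = 0.189). With PI3Kdi it was at 4.59, 9.60 and 5.53 FPKM. The ratio of means was 36.5 against TCR and 58.0 against naïve cells, and both low groups were at 0.20 FPKM or less in every library. These low values stand on few reads, by estimate 4.6 to 9.6 per library. Foxp3, which defines regulatory T cells, was at 0.10 to 0.19 FPKM in naïve, 0.12 to 0.29 in TCR and 0.22 to 0.93 in PI3Kdi treated cells. Of 8 measured markers of CD4+ and regulatory T cells, Nt5e (CD73) alone was called higher with PI3Kdi, at 4.39 to 5.48 FPKM against 0.33 to 0.45 FPKM in the TCR libraries (adjusted p = 2.15e-06), and none was called lower. The 8 summed to 636.0 to 1059 FPKM in the TCR and 818.6 to 876.2 in the PI3Kdi group, mostly from Il2ra, and Cd4 is not among the genes of the first table. Both activated groups were sorted as CD8+ cells, and the part of other T cells in the Gpr83 and Ecm1 levels was not tested.

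Counted over the members, 6 of 8 were called higher with PI3Kdi, against 3.04% of all 11262 genes (2.10% were called lower). Without replicate 1 of the PI3Kdi group 7 were called, with the replicate number as a block all 8, and with a pseudocount of 1 only 5. The 4 members that IL-2 loss had picked are the part of this count that the comparison did not choose, and 2 of them, Pde2a and Gm5538, were called, or all 4 with the block. After IL-2 withdrawal 6 of 7 were called higher, against 14.3% of 11211 genes (13.9% lower). Pgpep1l and Ecm1 are those that PI3Kdi had picked, and Pgpep1l was called. Compared with naïve cells, 5 members were called lower after TCR activation and none higher, against 23.7% of genes called lower and 25.0% called higher. With PI3Kdi 3 were called lower than in naïve cells, against 21.3% of genes. The 2 called higher, against 23.6% of genes, were Ecm1 and Gpr83, which high values in these same PI3Kdi libraries had picked, so nothing is read from that count. Of the 5 members that fell with TCR activation, 4 were those picked by IL-2 withdrawal.

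**Figure D2:**
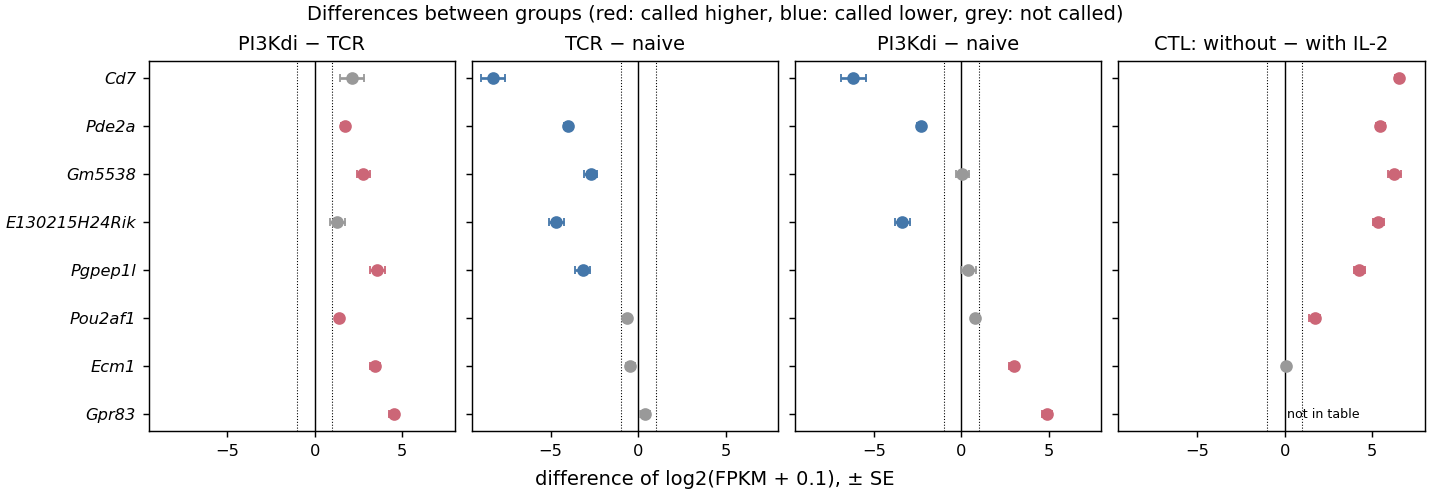
Differences of log2(FPKM + 0.1) between groups with their SE for the 8 mRNA, in red where called higher, in blue where called lower and in grey where not called. Dotted lines mark 2-fold. Cd7 has the widest SE in the first table (0.70), and the differences that picked a member are a description only.

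For comparison, 309 genes held by both tables were called higher with PI3Kdi and 1445 were called higher without IL-2, and 164 were on both lists. That is 53.1% of the first list, where 13.6% of all shared genes were called higher without IL-2, and 11.3% of the second, where 2.90% of all shared genes were called higher with PI3Kdi. The treatments used no library in common.

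**Figure D3:**
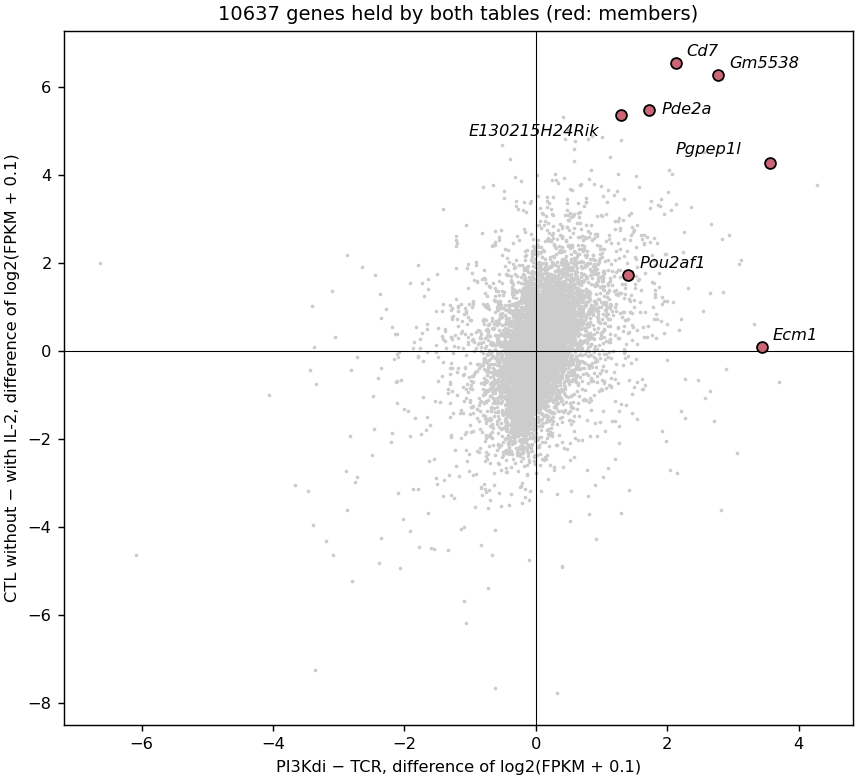
Difference with PI3Kdi (horizontal) against difference without IL-2 (vertical), both of log2(FPKM + 0.1), for 10637 genes held by both tables (grey) with the 7 members among them in red. Ecm1 lies at 3.44 and 0.09, Pgpep1l at 3.56 and 4.26, and Cd7 at 2.13 and 6.54.

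Replicate 1 of the PI3Kdi group was the lowest of its group for 7 of 8 members, for 48.8% of the 342 genes called higher with PI3Kdi and for 33.0% of all genes. Replicate 3 of the CTL without IL-2 was the highest of its group for 6 of 7 members, for 57.7% of the 1605 genes called higher and for 38.2% of all genes. The members thus shared the spread between replicates, and their differences are not separate pieces of evidence.

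Genes linked to FOXO1 were followed as a list. Of the 16 listed, all measured, 5 were called higher with PI3Kdi (among them Klf2, Il7r, Il6ra and Pik3ip1) and none lower, while Tcf7, Ccr7 and S1pr1 were among the 11 not called, with a median log2 fold change of 0.27 against −0.01 over all genes. After TCR activation 13 were called lower (median −2.83, all genes 0.01). Without IL-2 15 were called higher, all but Foxo3, which was just under 2-fold at 0.98 and passed it without replicate 1 or 2 (median 3.05, all genes 0.00). Il6ra, a receptor subunit for interleukin 6, had a course like that of Pde2a, falling from 61.5 ± 6.42 FPKM in the naïve to 1.34 ± 0.0404 in the TCR group, with 6.02 ± 1.35 where PI3Kdi was present (SD, n = 3 each). Klf2, a factor that maintains quiescence and recirculation, rose with PI3Kdi from 0.743 ± 0.621 to 14.4 ± 5.09 FPKM (adjusted p = 5.89e-05) and without IL-2 from 2.43 ± 0.112 to 35.4 ± 10.9 FPKM (adjusted p = 5.58e-07).

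Of 20 listed genes with Pde symbols, 13 were measured. Most encode cyclic nucleotide phosphodiesterases, but Pde6d and Pde12 among the 13 do not. With PI3Kdi 2 were called higher, Pde2a and the cGMP-specific Pde5a (1.30, adjusted p = 0.00401, under 2-fold with a pseudocount of 1). Without IL-2, 9 were called higher, counting Pde2a itself, and none lower. Over all genes 3.04% were called higher with PI3Kdi, and 14.3% were called higher and 13.9% lower without IL-2. Without replicate 1 or 2 the Pde5a difference with PI3Kdi kept its size (1.27 and 1.33) and its adjusted p rose to 0.0558 and 0.0555. With TCR activation 7 were called lower and 1 higher, Pde4a, which was under 2-fold with a pseudocount of 1 (0.54). Pde2a had the largest log2 fold change of this list with PI3Kdi. It also had the largest without IL-2, but that comparison had picked it, so nothing is read from that place. Pde4d (2.43, adjusted p = 1.61e-06) and Pde4b (2.16, adjusted p = 1.34e-06) followed it there. The abundant Pde3b, at 55.3 ± 5.84 FPKM in naïve cells, fell to 19.8 ± 0.973 with TCR activation (SD, n = 3, adjusted p = 8.52e-08). The rest of the cyclic nucleotide pathway (adenylate and guanylate cyclases, protein kinase A subunits, CREB factors and receptors) was listed as 20 symbols, 16 of them measured. Gucy1a3 and Gucy1b3 were measured, and their newer symbols Gucy1a1 and Gucy1b1 are among those counted as not measured. Only Adora2a, an adenosine receptor, was called with PI3Kdi, lower by 1.21 (adjusted p = 8.79e-04). Without IL-2, in contrast, Adora2a rose by 2.52 (adjusted p = 4.71e-07), among 4 called higher and 2 lower of 13.

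Co-receptors of T cells were listed together with Cd7 itself. Of the 7 genes measured, Cd28 alone was called higher with PI3Kdi (1.02, adjusted p = 3.70e-04), just past 2-fold, and it was under 2-fold with median scaling, without replicate 3 and without replicate 1 of the PI3Kdi group. Without IL-2, Cd7, Cd5, Cd6, Cd27 and Cd28 were called higher, against 14.3% of all genes, and this comparison had picked Cd7. Cd27, a costimulatory receptor of naïve and memory cells, rose there from 14.5 ± 1.02 to 200.6 ± 18.4 FPKM (SD, n = 3, adjusted p = 6.07e-08).

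Of 20 G protein-coupled receptors of lymphocytes, 18 were in the first table, and 5 were called higher with PI3Kdi (Gpr83, Gpr171, S1pr4, Cxcr3 and Ccr9) and Gpr65 lower. Over all genes 3.04% were called higher and 2.10% lower. This comparison had picked Gpr83, so nothing is read from its place in the count. Without replicate 2 the calls of Gpr171 (0.98), S1pr4 (0.98) and Gpr65 (−1.11) were lost, and that of Gpr171 also without replicate 1 (0.99). With a pseudocount of 1 Ccr9 was under 2-fold (0.75). Gpr83 differs from Ccr9, a gut-homing receptor that was at 89.4 ± 0.150 FPKM in naïve, 0.200 ± 0.0854 in TCR and 1.04 ± 0.376 in PI3Kdi treated cells (SD, n = 3 each). After TCR activation 10 of the 18 were called lower and Gpr171 higher, against 23.7% and 25.0% of all genes. Without IL-2, 10 of 17 were called higher and P2ry14 lower, against 14.3% and 13.9% of all genes. Of 14 secreted matrix proteins and regulators, 8 were measured, and with PI3Kdi Ecm1 and Timp2 were called higher and Lgals1 lower, the last not without replicate 2 (−1.39, adjusted p = 0.0718). Ecm1 had been picked by this comparison. Timp2, an inhibitor of matrix metalloproteinases, had a naïve course, with 29.6 ± 0.594, 1.35 ± 0.234 and 10.4 ± 2.80 FPKM in naïve, TCR and PI3Kdi treated cells (SD, n = 3 each), and it was called higher without IL-2 (2.53, adjusted p = 9.77e-05), though under 2-fold there with a pseudocount of 1 (0.92).

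Genes next to the members were compared by distance alone. Over the nearest gene on each side and the 1 overlapping gene that both tables hold, 17 in all, 4 were called higher with PI3Kdi, against 3.04% of all genes, and 5 were called higher without IL-2, against 14.3%. None was called lower in either. With PI3Kdi these were Art2b, Acss1, Igf1r and Adamtsl4, and without IL-2 the same 4 and Fam169b. Art2b, an ADP-ribosyltransferase gene 62.9 kb from Pde2a, had 23.9 ± 2.84 FPKM in the naïve, 0.770 ± 0.306 in the TCR and 3.62 ± 0.659 in the PI3Kdi group (SD, n = 3 each), and it rose with PI3Kdi by 2.14 (adjusted p = 1.35e-04) and without IL-2 by 3.33 on the log2 scale (adjusted p = 6.88e-07).

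Igf1r, the insulin-like growth factor 1 receptor, ends 1.9 kb from Pgpep1l. It rose with PI3Kdi by 1.13 (adjusted p = 0.00425) and without IL-2 by 4.40 (adjusted p = 2.59e-07), yet it did not share the fall of Pgpep1l with TCR activation (log2 fold change 0.43, adjusted p = 0.0825). The PI3Kdi call was lost without replicate 2 (1.01, adjusted p = 0.0738) and with a pseudocount of 1 (0.94). Adamtsl4, 46.2 kb from Ecm1, rose with PI3Kdi from 0.233 ± 0.0208 to 1.15 ± 0.334 FPKM (SD, n = 3, adjusted p = 2.40e-04). With a pseudocount of 1 Adamtsl4 was under 2-fold both with PI3Kdi (0.79) and without IL-2 (0.48). Tars2, 0.1 kb from Ecm1, was called in neither treatment. Cd7, Gm5538, Pou2af1 and Gpr83 had no neighbour called in either treatment.

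**Figure D4:**
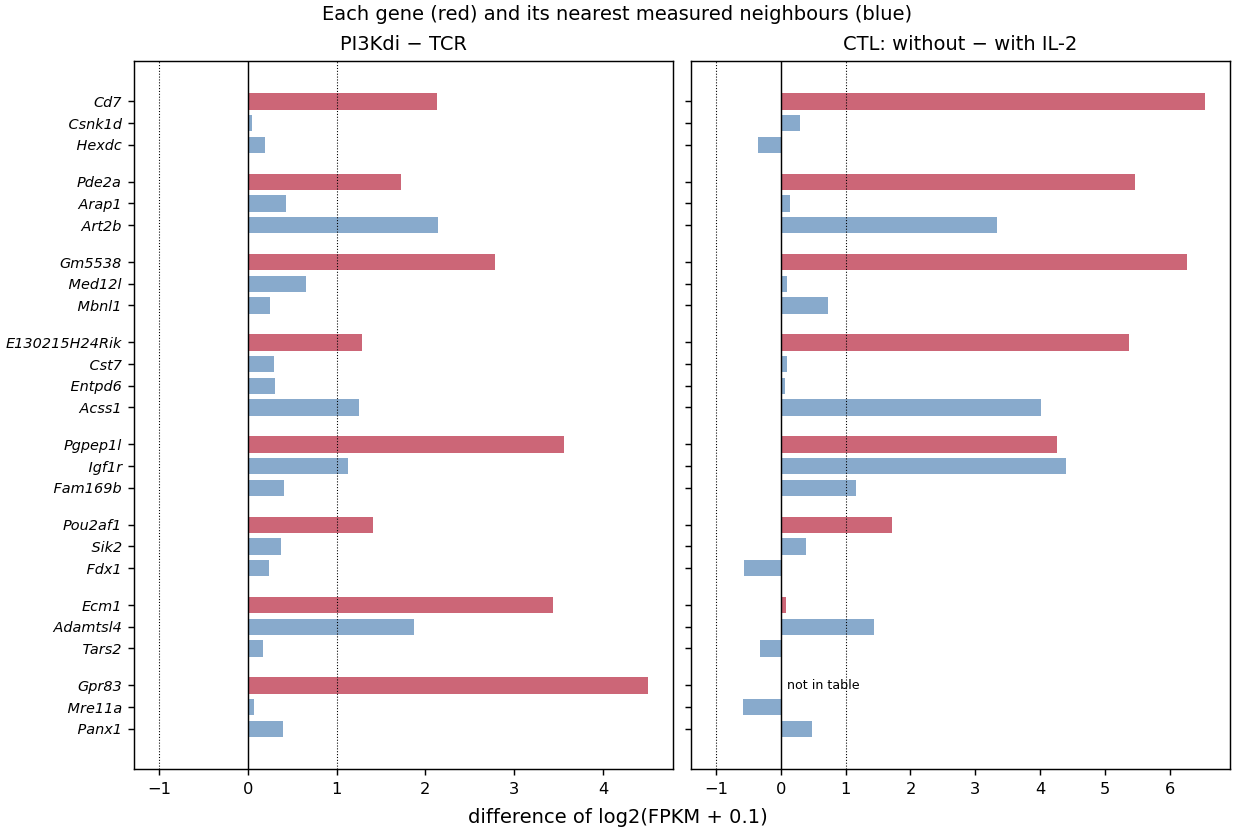
Differences of log2(FPKM + 0.1) with PI3Kdi (left) and without IL-2 (right) for each member (red) and its nearest measured neighbours (blue), with dotted lines at 2-fold. Art2b, Acss1, Igf1r and Adamtsl4 pass 2-fold in both panels, and the neighbours of Cd7 and Gpr83 do not.

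The mRNA most like each member were found by the mean of Pearson r over the 9 and the 6 libraries, on log2(FPKM + 0.1), among 10106 genes that reach 1 FPKM in both tables. With groups this far apart r mostly reflects the order of the group means, and it is given with no p. Cd7 was followed by Lcn4 (mean r 0.994), Pde2a by St8sia1 (0.997), E130215H24Rik by Il17ra (0.990), Pou2af1 by Ankrd50 (0.955) and Ecm1 by Capg (0.892). Gng2 and Trib2 were among the 3 genes most like both Gm5538 (0.973 and 0.961) and Pgpep1l (0.979 and 0.973). Trib2 had 42.9 ± 1.61 FPKM in naïve, 5.55 ± 1.18 in TCR and 42.6 ± 3.65 in PI3Kdi treated cells (SD, n = 3 each), again overlapping between PI3Kdi and naïve cells, and 0.383 ± 0.0808 with against 2.92 ± 0.578 FPKM without IL-2.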

How the data were processed

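RNA of the 15 libraries was sequenced from TruSeq Stranded mRNA kits with 75 bp paired-end reads. According to the labels, processing notes and methods, the authors aligned reads with STAR 2.5.2b to mm10, counted them per RefSeq gene with Subread 1.5.1 and filtered low genes, scaled by TMM and divided by exon length with edgeR, and deposited FPKM rounded to 2 decimals. The methods are stated for the first table, and the CTL table, which the article does not report on, was taken to be made alike. In the first table, 1039 blank cells were read as 0, and the CTL table lists 120 zeros. The count model of the methods needs raw counts, which were not used here, and was replaced by a test on a log scale. No column of either table was left without a sample.

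log2(FPKM + 0.1) was fitted with limma 3.58.1 in R 4.3.3 with an intensity trend, the 9 libraries of the first table in one fit and the 6 CTL libraries in another, without a block, and p was adjusted by Benjamini-Hochberg over all genes of the table. Calls needed an adjusted p under 0.05 and over 2-fold. The fit was tested on simulated data. Replicates are pools of 3 mice in the first table, and the labels call those of the CTL replicates without naming their source, so that p-values there measure the spread between these samples. Same-numbered TCR and PI3Kdi libraries deviated together from their group means (r 0.275, 0.203 and 0.506 over genes), as did the CTL pairs (0.123, 0.166 and 0.257), while pairs with naïve libraries ranged from −0.181 to 0.226, and the protocol divides each pool among the groups. Unlike-numbered TCR and PI3Kdi libraries had r from −0.453 to 0.191, and unlike-numbered CTL libraries from −0.201 to 0.091. Naïve replicate 3 with TCR replicate 1 had 0.378, above some same-numbered pairs, so the pairing is uncertain. The numbers were taken to pair the activated and the CTL libraries, and the block is given where it changes a call.

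Read totals are not given. The spacing of the lowest FPKM put the depth of a library at an estimated 11.3 to 14.5 M reads in the first table and 9.6 to 12.5 M in the CTL table, with exon lengths from GENCODE M21, and estimated reads behind low values rest on it. The members, lists and alternatives were chosen with earlier results of these data known. Genes were named as members, as genes of the lists, as the nearest measured neighbours or as the 3 most similar genes. Among list genes, those named with values were chosen after these were seen. Values of 2 list genes are not reported here. Motifs were searched in RefSeq promoters of GRCm38.p6, the build of mm10, and copies of member transcripts with blastn 2.17.0. Figures were drawn with matplotlib 3.10.9 in Python 3.11.15.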

Additional observations from a re-analysis of the deposited data

How the results depend on the processing

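Calls were repeated at a limit of 1.5-fold, with other pseudocounts (0.01 and 1), after median scaling, for genes of at least 1 FPKM on average, with the replicate number as a block, without the intensity trend, in fits of the 2 groups alone and with a replicate removed in turn. Leaving out replicate 1 of the PI3Kdi group alone was added after seeing the data. Over 354 fits of single members, direction and side of the threshold were kept in 341. The Gm5538 difference between PI3Kdi and naïve cells, 0.06, ran from −0.25 without replicate 3 to 0.37 without replicate 1, and none of these values was called. For PI3Kdi against TCR, 579 genes were called, 311 with a pseudocount of 1, 1120 with a limit of 1.5-fold and 323 to 574 when a replicate was left out. The lowest of these was without replicate 2. The 8 members called with the replicate block were 2 more than without it, Cd7 and E130215H24Rik, and 591 genes were called with the block, which changed no other call of a member. Without IL-2 the 3166 genes called became 5657 with a limit of 1.5-fold. Median scaling moved the median log2 fold change of all genes by 0.12 for TCR against naïve cells and by 0.09 or less in the other comparisons, and turned the direction of no member. The pseudocount moved low members most: the IL-2 difference of Gm5538 ran from 3.29 to 8.86 on the log2 scale. With a pseudocount of 1, Pou2af1 after IL-2 loss (0.66) and Gm5538 with PI3Kdi (0.96) or after TCR activation (−0.91) were under 2-fold. The causes were not tested. Depth limits E130215H24Rik, Gm5538, Pgpep1l and Cd7 in TCR activated cells and CTL with IL-2, where they stand on a few reads. It also limits Gpr83 in naïve and TCR activated cells, at an estimated 4.6 to 9.6 reads per library. The same holds for Pou2af1 in CTL with IL-2, at an estimated 3.8 to 10.8.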
